A study of Nicotiana benthamiana with 28 samples.

Results

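The genes described here are those of Nicotiana benthamiana seedlings whose transcript level set wild type apart from every mutant and construct line, whether or not the seedlings had received the protein XEG1. Genes were chosen by their TPM, averaging 1 TPM or more over 28 libraries. The values in the 4 wild-type libraries had to be all above, or all below, those in the other 24 libraries. The mean of the wild-type XEG1 libraries also had to lie within 1 of the mean of the wild-type mock libraries on the log2(TPM + 1) scale. TPM is transcript abundance corrected for gene length and brought to 1 common sum per library. Of 36777 genes at that average, 466 met the rule (1.27%). Among them 78 were higher in wild type than in all other lines (0.212%) and 388 were lower (1.06%). These are called the wild-type-high and the wild-type-low genes. Since measured values chose them, their distance from wild type is a description and carries no test.

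The libraries came from 12-day-old seedlings, collected 3 h after XEG1 or a mock treatment that the sample titles call EV, with 2 libraries in each of 14 groups. The lines tested were a sobir1/sobir1-like knockout, 4 lines in which the rxeg1 knockout carries an RXEG1syn construct behind the RXEG1 promoter, the rxeg1 knockout itself, and wild type. The constructs were RXEG1synΔCT in a pair of lines (ΔCT line 1 and ΔCT line 2), RXEG1synΔ90-95/Q786AK791AΔCT (the Δ90-95/Q786AK791A line) and RXEG1synΔ90-95/Δ786-792ΔCT (the Δ90-95/Δ786-792 line). All construct lines therefore share the knockout of the resident RXEG1 gene with the rxeg1 line, and apart from RXEG1synΔCT each genotype was represented by 1 line. No construct with the unaltered RXEG1 sequence was among the libraries analysed here.

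XEG1 is a glycoside hydrolase that the pathogen Phytophthora sojae secretes into the space between plant cells. RXEG1 is a receptor-like protein with extracellular leucine-rich repeats that binds XEG1 at the cell surface. It has no kinase domain of its own, and SOBIR1 is the membrane-bound kinase with which such receptor-like proteins work. A gene that differs between wild type and both knockouts under mock treatment as well as under XEG1 is one whose level follows the line and not only the treatment.

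Gene identifiers come without gene names in the files, so no role is given to any gene and the RXEG1 and SOBIR1 genes were not looked up in the libraries. Depth is unknown, because TPM keeps no read numbers. Per library, 33443 to 37043 genes were at 1 TPM or above. The wild-type XEG1 libraries stood apart from the rest. Their median ratio of TPM to the mean over libraries was 0.669 in replicate 1 and 0.666 in replicate 2, against 0.854 to 1.10 in the other 26 libraries, wild-type mock included. The median of all tested genes was 0.29 higher (log2) in the mutant and construct lines than in wild type. Relative to that median, the wild-type-high genes were a median of 1.07 lower in the other lines than in wild type, and the wild-type-low genes were 0.45 higher. When each library was divided by its median ratio before the rule was applied, 130 wild-type-high and 219 wild-type-low genes were found. Of these, 27 were among the 78 (34.6% of the 78 and 20.8% of the 130) and 90 were among the 388 (23.2% of the 388 and 41.1% of the 219). The numbers rest on the wild-type mock libraries too: leaving out replicate 1 of that group gave 269 and 1003 genes, and leaving out replicate 2 gave 297 and 2899.

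The wild-type-high genes ranged in mean level from 1.16 to 374 TPM, with a median of 17.8 TPM against 8.78 TPM for all tested genes. On the log2(TPM + 1) scale, the other 24 libraries averaged between 2.06 and 0.24 lower than wild type, with a median of -0.79, and the distance was at least 2-fold for 22 of the 78 genes. The wild-type-low genes ranged from 1.01 to 821 TPM in mean level, with a median of 14.2 TPM. The other libraries averaged between 0.26 and 2.13 higher than wild type, with a median of 0.74, and the distance was at least 2-fold for 79 of the 388. Whole seedlings were sequenced, so a change in the number of cells of a type and a change in RNA per cell cannot be told apart.

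Most of these genes cleared the nearest other library by little. The gap between wild type and the nearest of the other 24 libraries had a median of 0.055 on the log2(TPM + 1) scale in both directions. It reached 0.1 for 27 of the 78 wild-type-high genes and for 106 of the 388 wild-type-low genes, and 0.5 for 2 and 4 of them. The gap was wider than the gene's own residual SD, the spread between the replicates of a group, for 6 wild-type-high and 41 wild-type-low genes. At the edge of the rule, the last wild-type-high gene kept had a lowest wild-type value of 33.127 TPM and a highest value of 33.119 TPM elsewhere, and the first one left out had 26.611 TPM against 26.616 TPM. The limit on the wild-type change removed 59 genes that were above all other lines, each with a rise after XEG1, and 79 that were below, each with a fall.

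The wild-type-high gene with the widest gap was Niben101Scf00833g04004. In the mutant and construct lines its lowest, median and highest levels were 9.20, 24.6 and 49.98 TPM, against 102 and 134 TPM after XEG1 and 90.1 and 101 TPM after mock in wild type. Every wild-type library was thus above the highest other library, by a gap of 0.84, and the other lines averaged 2.06 lower on the log2(TPM + 1) scale. Among the lines, the sobir1/sobir1-like knockout at 36.5 ± 13.7 TPM and the rxeg1 knockout at 36.3 ± 10.6 TPM were nearest to wild type, and the Δ90-95/Q786AK791A line at 16.0 ± 5.88 TPM was farthest (SD, n = 4 libraries each). Both knockouts overlapped each other, and the Δ90-95/Q786AK791A line lay below every rxeg1 library and overlapped the sobir1/sobir1-like knockout.

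Niben101Scf00046g08005 followed, with 17.4, 59.6 and 109 TPM as the lowest, median and highest levels in the mutant and construct lines. Wild type had 157 and 177 TPM after XEG1 and 171 and 170 TPM after mock, so the wild-type libraries lay close together and above all others. The gap was 0.51 and the other lines averaged 1.63 lower (log2). Levels were 33.2 ± 18.0 TPM in the Δ90-95/Q786AK791A line, 44.9 ± 19.3 TPM in ΔCT line 1 and 78.3 ± 23.9 TPM in the rxeg1 knockout (SD, n = 4 each). Within the Δ90-95/Q786AK791A line, replicate 1 had 35.1 TPM after XEG1 and 57.9 TPM after mock, and replicate 2 had 17.4 and 22.6 TPM, so the spread between replicates was wide.

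Of the wild-type-low genes, Niben101Scf00819g10005 had the widest gap, 0.80. Its lowest, median and highest levels were 12.3, 17.3 and 24.2 TPM in the mutant and construct lines, against 1.01 and 3.73 TPM after XEG1 and 2.78 and 6.68 TPM after mock in wild type. The other lines averaged 2.13 higher (log2). Their means lay between 15.2 ± 0.643 TPM in the sobir1/sobir1-like knockout and 18.7 ± 1.47 TPM in ΔCT line 1 (SD, n = 4 each). The lines were thus much closer to one another than to wild type. The gap was set by wild-type mock replicate 2, at 6.68 TPM, and was 1.5 without it.

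Niben101Scf01958g06002 was listed at 0 in both wild-type XEG1 libraries and at 0.295 and 0.482 TPM in the wild-type mock libraries. In the mutant and construct lines it had a lowest level of 1.53 TPM, a median of 2.86 TPM and a highest level of 4.63 TPM. It is a gene of low level, and a listed 0 can be a failed estimate, so no fold is given. Of the 388 wild-type-low genes, 6 were listed at 0 in some wild-type library and none in all 4 of them.

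**Figure D1:**
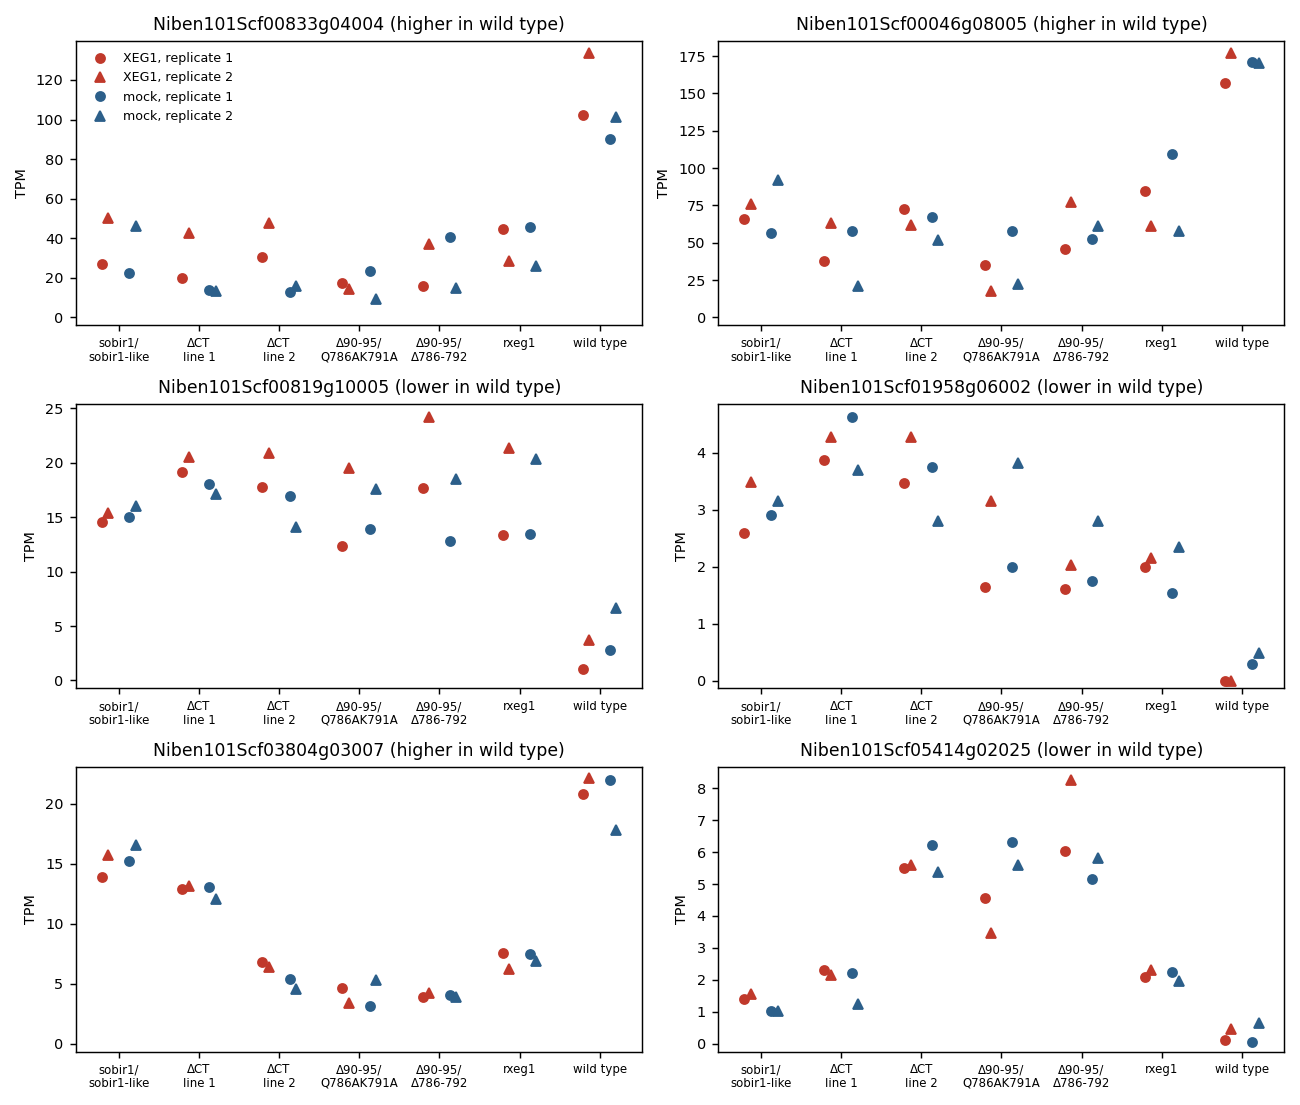
TPM in every library (vertical axes) of Niben101Scf03804g03007, Niben101Scf05414g02025 and, in each direction, the 2 genes with the widest gap. Libraries are set by genotype with XEG1 libraries left of mock libraries and wild type at the right. Each point is 1 library, and the wild-type points lie above all others in the wild-type-high genes and below all others in the wild-type-low genes, as the rule requires.

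The other lines did not stand at 1 distance from wild type, and their order was much the same in both directions. For the wild-type-high genes, the median of line minus wild type (log2, both treatments) was -0.57 in the sobir1/sobir1-like knockout, -0.69 in the Δ90-95/Δ786-792 line and -0.65 in the rxeg1 knockout. It was farther from 0 in the remaining lines, at -1.05 with the Δ90-95/Q786AK791A construct, -0.96 in ΔCT line 1 and -0.82 for ΔCT line 2. The first group of lines was thus nearer to wild type than the second. The number of the 78 genes at least 2-fold lower than in wild type was 12, 15 and 12 in the first group. It was 42, 37 and 27 in the second, in the same order of lines. All 36777 tested genes divided the lines in the same way. Of them, 2752, 2979 and 2882 were at least 2-fold from wild type in either direction in the first group, and 4813, 6309 and 5304 in the second. The division is thus not particular to the genes chosen here. After XEG1 alone the medians were -0.82, -0.84 and -0.82 in the first group and -1.22, -1.18 and -0.99 in the second. Under mock alone they were closer to 0, at -0.35, -0.47 and -0.42 in the first group and -0.74, -0.84 and -0.72 in the second.

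The wild-type-low genes gave the same division. The median of line minus wild type was 0.53 in the sobir1/sobir1-like knockout, 0.61 in the Δ90-95/Δ786-792 line and 0.62 in the rxeg1 knockout. It reached 0.85 with the Δ90-95/Q786AK791A construct, 0.96 in ΔCT line 1 and 0.89 for ΔCT line 2. Of the 388 genes, 36, 46 and 40 were at least 2-fold higher than wild type in the first group of lines, and 129, 178 and 151 in the second. The 2-fold numbers over all tested genes, given above, divide the lines in the same way. After XEG1 alone the medians were 0.66, 0.74 and 0.83 in the first group and 0.99, 1.09 and 1.03 in the second, and under mock alone 0.39, 0.48 and 0.40 and 0.72, 0.82 and 0.75. Over all tested genes the medians of the 6 lines lay between 0.39 and 0.60 after XEG1, and between -0.0047 and 0.12 under mock. Over both treatments, the median of all tested genes was 0.20, 0.28 and 0.26 in the first group and 0.23, 0.34 and 0.36 in the second. Relative to these, the wild-type-low genes were higher by 0.33, 0.33 and 0.36 in the first group and by 0.62, 0.62 and 0.53 in the second, and the wild-type-high genes lower by 0.78, 0.97 and 0.91 and by 1.28, 1.30 and 1.17 (log2). With median-ratio scaling all 78 wild-type-high genes averaged lower than wild type in each line, and 365 to 386 of the 388 wild-type-low genes averaged higher.

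**Figure D2:**
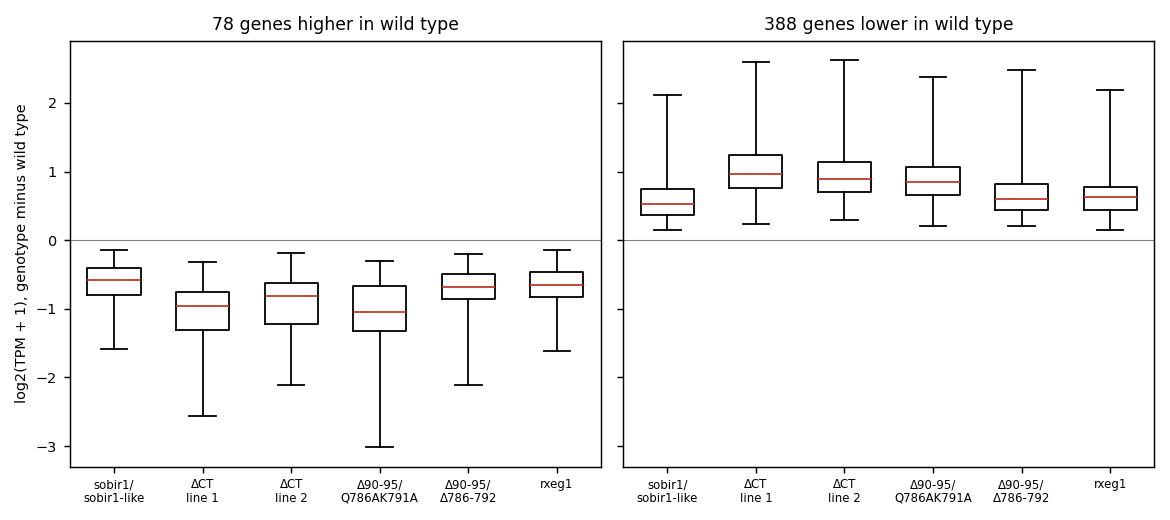
Line minus wild type on the log2(TPM + 1) scale (vertical axis) for the wild-type-high genes and the wild-type-low genes, in each of 6 lines. Boxes are quartiles with the median as a line and whiskers reach the lowest and highest gene. For the wild-type-high genes the medians run between -0.57 in the sobir1/sobir1-like knockout and -1.05 in the Δ90-95/Q786AK791A line, and for the wild-type-low genes between 0.53 in the sobir1/sobir1-like knockout and 0.96 in ΔCT line 1.

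The line whose mean was nearest to wild type was the sobir1/sobir1-like knockout for 37 of the 78 wild-type-high genes and 230 of the 388 wild-type-low genes. It was the rxeg1 knockout for 29 and 87 of them and the Δ90-95/Δ786-792 line for 10 and 49. The farthest line was ΔCT line 1 for 34 wild-type-high and 230 wild-type-low genes, and the Δ90-95/Q786AK791A line for 38 and 68. The order depends on the measure: the single library nearest to wild type came from the Δ90-95/Δ786-792 line for 29 of the wild-type-high genes, the sobir1/sobir1-like knockout for 23 and the rxeg1 knockout for 20. For the wild-type-low genes it came from these lines for 97, 165 and 86. One library, sobir1/sobir1-like XEG1 replicate 2, was the nearest to wild type for 116 of the 388 wild-type-low genes (29.9%).

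The summed level shows the same by library. The 78 wild-type-high genes together held 1876 to 2795 TPM in the 12 libraries of the Δ90-95/Q786AK791A line and both ΔCT lines. They held 2829 to 3524 TPM in the 12 libraries of the sobir1/sobir1-like knockout, the Δ90-95/Δ786-792 line and the rxeg1 knockout. In wild type they held 5613 and 5946 TPM after XEG1 and 4347 and 4446 TPM after mock. The sums of wild type lie above all others by the rule, since each gene does. The ranges of both groups of lines did not overlap, and within wild type the XEG1 libraries were above the mock libraries.

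The 388 wild-type-low genes together held 14907 to 22221 TPM in the Δ90-95/Q786AK791A line and both ΔCT lines, and 11415 to 14565 TPM in the sobir1/sobir1-like, Δ90-95/Δ786-792 and rxeg1 lines. Wild type had 8443 and 7903 TPM after XEG1 and 10172 and 9983 TPM after mock. Here too the rule places wild type below all others, and the ranges of both groups of lines did not overlap. ΔCT line 1 mock replicate 2 was the highest library and the wild-type XEG1 libraries were the lowest. ΔCT line 1 mock replicate 2 was also the library with the lowest sum over the wild-type-high genes. These lines were set in 2 groups after their values had been seen, and a sum gives abundant genes more weight.

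**Figure D3:**
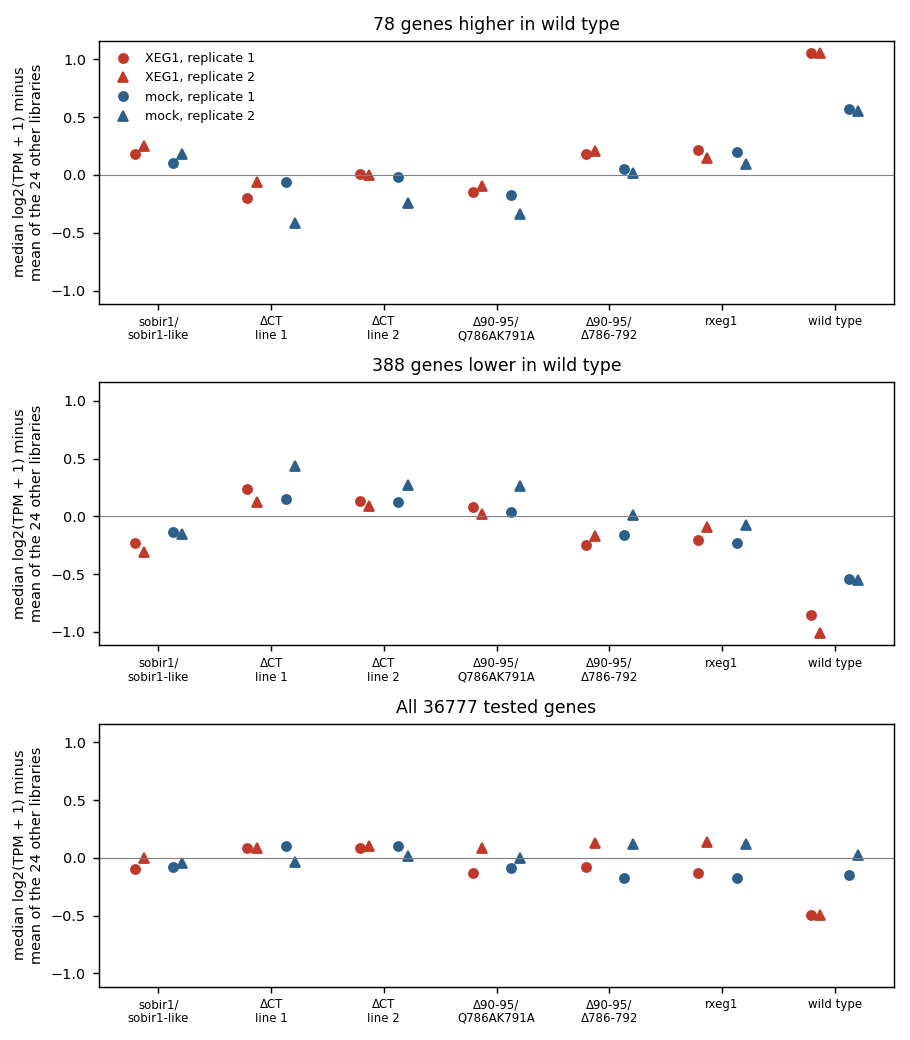
Median over the wild-type-high genes, the wild-type-low genes and all tested genes of each gene's log2(TPM + 1) minus its mean over the 24 libraries of the other lines (vertical axis), for every library by genotype, XEG1 left of mock. For the wild-type-high genes the wild-type libraries lie between 0.55 and 1.06 and the others between -0.41 and 0.25. For the wild-type-low genes wild type lies between -1.01 and -0.54 and the others between -0.31 and 0.44. That wild type lies apart in both directions is required by the rule.

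The rule set a limit on the change of these genes with XEG1 in wild type, so this change is a description. Among the wild-type-high genes, the wild-type XEG1 mean was above the mock mean in 69 of 78, with a median of 0.29 (log2), and the change lay within 0.25 for 34. Among the wild-type-low genes it was below the mock mean in 350 of 388 (90.2%), with a median of -0.37, and within 0.25 for 127; with each library divided by its median ratio, the median of these 388 was 0.02, with 184 below, and that of the 78 was 0.77, with 77 above. Of all tested genes 74.0% were lower after XEG1 in wild type, with a median of -0.39. The median of the wild-type-low genes was thus close to that of all genes, and that of the wild-type-high genes had the other sign. Among genes that met the rule with and without the median-ratio scaling, the scaled change was positive in 26 of 27 wild-type-high genes, with a median of 0.59, and negative in 78 of 90 wild-type-low genes, with a median of -0.30.

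The rule used no treatment label outside wild type, although it bounds how far the other 24 libraries can spread on the side of wild type. The limit on the wild-type change was met by 28091 of the 36777 tested genes. Medians and shares over all tested genes include the rest, so the 2 sides of those comparisons were not held to the same limit. In the mutant and construct lines the genes moved little with XEG1 in the median. Single genes moved more: Niben101Scf00833g04004 changed by 1.045 in ΔCT line 1 and 1.345 in ΔCT line 2. Its change was 0.29 in wild type and -0.025 to 0.18 in the remaining lines, and these differences were not tested. For the wild-type-high genes the median XEG1 minus mock change was 0.07 in the sobir1/sobir1-like knockout and 0.02 in the rxeg1 knockout. In the construct lines it was 0.13 for ΔCT line 1, 0.10 for ΔCT line 2, 0.10 with the Δ90-95/Q786AK791A construct and 0.12 with the Δ90-95/Δ786-792 construct. For the wild-type-low genes the same medians, in the same order, were -0.11 and 0.02 in the knockouts and -0.10, -0.09, -0.11 and -0.15 in the construct lines, against medians of 0.01 to 0.06 over all tested genes. In TPM the sign was that of wild type in all 6 lines for the wild-type-high genes and in 5 of the 6 lines for the wild-type-low genes. In the rxeg1 knockout both medians were close to 0. With median-ratio scaling the medians were 0.06 to 0.09 and -0.20 to -0.11 in the 5 lines other than rxeg1, and 0.00014 and -0.0077 in rxeg1, where the sign for the wild-type-low genes flipped. Since the scaled median of the wild-type-low genes was 0.02 in wild type, all 6 lines then had the sign opposite to wild type for these genes. In rxeg1, as in wild type, that median was close to 0.

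**Figure D4:**
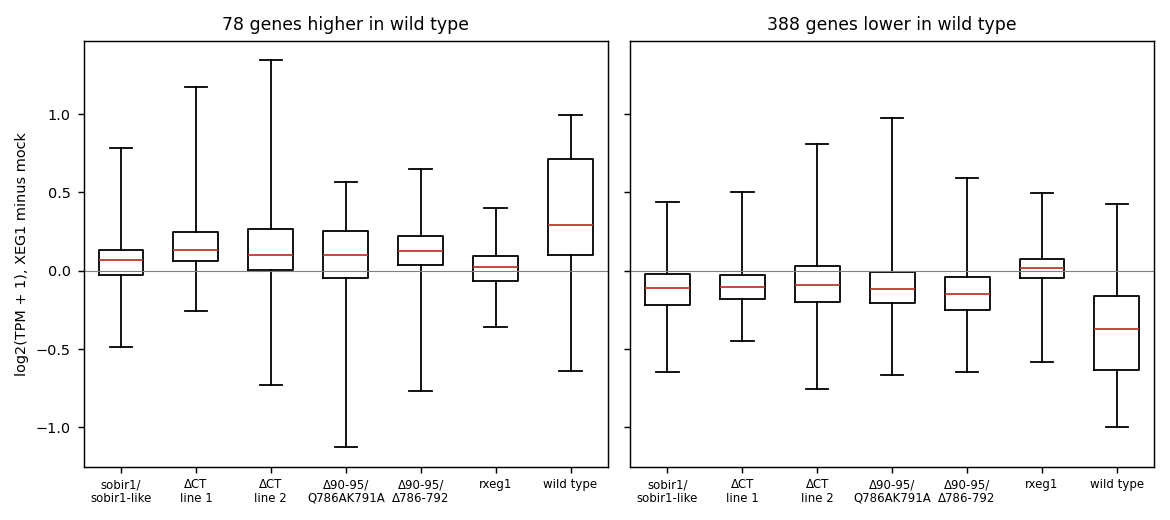
XEG1 minus mock on the log2(TPM + 1) scale (vertical axis) for the wild-type-high and wild-type-low genes in each of 6 lines and in wild type, at the right. Boxes are quartiles with the median as a line and whiskers reach the lowest and highest gene; the medians lie between -0.15 and 0.13 in the 6 lines, against 0.29 and -0.37 in wild type.

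Pooled over the 6 lines, the XEG1 minus mock change had a median of 0.10 over the wild-type-high genes, 68 of 78 of them positive, and of -0.09 over the wild-type-low genes, 71 of 388 positive. The median over all tested genes was 0.03. By limma's moderated test with Benjamini-Hochberg adjustment over all 36777 genes, 1 of the 466 genes was called. Of all tested genes 531 were called (1.44%), 1.31% higher and 0.139% lower. At an unadjusted p under 0.05 the limma test found 96 of the 466 (20.6%), against 9.34% of all tested genes. The called gene, the wild-type-low Niben101Scf02819g02008, was lower after XEG1 by a log2 change of -0.34 (SE 0.080, adjusted p = 0.0389 by limma). It had 51.2 and 39.5 TPM after XEG1 and 72.1 and 69.6 TPM after mock in the sobir1/sobir1-like knockout, 102 and 80.1 against 114 and 144 TPM in the Δ90-95/Q786AK791A line, and 55.4 and 56.9 against 60.1 and 55.6 TPM in the rxeg1 knockout. XEG1 and mock libraries were apart in the first 2 of these lines and overlapped in the third.

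This gene kept its call in 9 of 31 alternative settings, with adjusted p between 0.00446 and 0.129 by limma. An estimated correlation of 0.448 between the mock and XEG1 libraries of a line and replicate raised the number called to 20 (4.29%), against 1579 of all tested genes (4.29%). Of the 20, 8 were higher after XEG1, all wild-type-high, and 12 were lower, all wild-type-low. That match of sign and direction did not hold in every setting. Without Δ90-95/Q786AK791A XEG1 replicate 2, the genes called were wild-type-low and higher after XEG1. The number called was 1, a wild-type-low gene lower after XEG1, without sobir1/sobir1-like XEG1 replicate 1 or ΔCT line 2 mock replicate 1. It was also 1, but a wild-type-high gene higher after XEG1, without ΔCT line 2 XEG1 replicate 1, Δ90-95/Δ786-792 XEG1 replicate 1 or Δ90-95/Δ786-792 mock replicate 2. It was 9 without ΔCT line 1 mock replicate 1, 3 without Δ90-95/Q786AK791A mock replicate 1, 2 without either Δ90-95/Q786AK791A XEG1 library or Δ90-95/Δ786-792 mock replicate 1, and 0 without any 1 of the other 14 libraries of the 6 lines.

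The lines were next compared with one another, a contrast that does not name wild type. The direction is still favoured by the choice of genes: every line had to lie on 1 side of wild type, and the lines that serve here as the comparison lay close to it. The numbers of genes called are therefore given beside those over all genes and nothing is read from their sum or their direction. The same rxeg1 libraries serve in all comparisons with the rxeg1 knockout.

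Between the knockouts, the difference was small in the median. The median of sobir1/sobir1-like minus rxeg1, over both treatments, was 0.04 for the wild-type-high genes and -0.06 for the wild-type-low genes, against -0.04 for all tested genes. The limma test called 1 of the 466 genes, against 21 of all tested genes (0.0571%), 0.0353% higher and 0.0218% lower, and at an unadjusted p under 0.05 it found 19 (4.08%), against 3.96% of all tested genes.

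The called gene was the wild-type-high Niben101Scf03804g03007. It had 13.9 and 15.7 TPM after XEG1 and 15.2 and 16.5 TPM after mock in the sobir1/sobir1-like knockout, against 7.57 and 6.18 TPM and 7.47 and 6.88 TPM in the rxeg1 knockout. The lines did not overlap, and the log2 difference was 1.03 (SE 0.13, adjusted p = 0.00148 by limma). Its mean level over lines was 15.3 ± 1.11 TPM in the sobir1/sobir1-like knockout, 12.8 ± 0.494 TPM in ΔCT line 1 and 5.76 ± 1.02 TPM for ΔCT line 2. It was 4.10 ± 1.05 TPM with the Δ90-95/Q786AK791A construct and 4.0 ± 0.173 TPM with the Δ90-95/Δ786-792 construct, 7.02 ± 0.641 TPM in the rxeg1 knockout and 20.7 ± 2.0 TPM in wild type (SD, n = 4 libraries each). The order thus put the ΔCT lines, which carry the same construct, more than 2-fold apart, while the rxeg1 knockout overlapped ΔCT line 2, and the Δ90-95/Q786AK791A line overlapped the Δ90-95/Δ786-792 line. The call held in 13 of 17 alternative settings and was lost in mock or XEG1 libraries alone, with the estimated correlation (adjusted p = 0.0749) and in a fit of the compared groups alone (0.208), with a range of 0.00113 to 0.208 over all 17.

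Against the mean of the 5 lines that carry the rxeg1 knockout, the sobir1/sobir1-like knockout differed by a median of 0.21 over the wild-type-high genes and -0.25 over the wild-type-low genes, with -0.07 over all tested genes. The limma test called 56 of the 466 genes (12.0%), 5 wild-type-high genes as higher and 51 wild-type-low genes as lower, against 894 of all tested genes (2.43%), 1.2% higher and 1.23% lower. Niben101Scf03804g03007 was higher by 1.19 (SE 0.10, adjusted p = 4.36e-06) and was called in all 33 alternative settings, with adjusted p between 1.02e-06 and 0.00216 by limma. Of the other named genes, Niben101Scf07942g04004 was higher by 0.79 (SE 0.12, adjusted p = 0.00515, called in 29 of 33).

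The wild-type-low Niben101Scf05414g02025 was lower in the sobir1/sobir1-like knockout by a log2 difference of -1.11 (SE 0.12, adjusted p = 0.000115 by limma, called in 32 of 33 settings). It had 1.39 and 1.55 TPM after XEG1 and 1.02 and 1.02 TPM after mock there, while wild type had 0.107 and 0.452 TPM after XEG1 and 0.0486 and 0.655 TPM after mock. Its means were 5.67 ± 0.382 TPM in ΔCT line 2, 6.32 ± 1.35 TPM with the Δ90-95/Δ786-792 construct and 4.98 ± 1.24 TPM with the Δ90-95/Q786AK791A construct, which overlapped one another. They were 1.98 ± 0.487 TPM in ΔCT line 1 and 2.15 ± 0.155 TPM in the rxeg1 knockout, which overlapped as well (SD, n = 4 each). Niben101Scf24421g00002, also wild-type-low, was lower, with a difference of -1.13 (SE 0.23, adjusted p = 0.0217 by limma, called in 26 of 33). This call was lost with the estimated correlation (adjusted p = 0.14 by limma).

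When 1 library was left out, the calls over all tested genes fell or rose together with the count of 56. The count of 56 rested on single libraries. It was 3 without sobir1/sobir1-like mock or XEG1 replicate 1 and 2 without mock or XEG1 replicate 2. Without 1 library of another line it was 116 (ΔCT line 1 mock replicate 1), 94 (rxeg1 mock or XEG1 replicate 1), 93 (Δ90-95/Δ786-792 mock replicate 1), 37 (Δ90-95/Q786AK791A XEG1 replicate 1), 35 (rxeg1 mock replicate 2), 34 (ΔCT line 2 XEG1 replicate 1), 29 (ΔCT line 2 mock or XEG1 replicate 2, Δ90-95/Δ786-792 XEG1 replicate 2), 28 (ΔCT line 1 XEG1 replicate 2, Δ90-95/Q786AK791A mock replicate 2) and 27 (ΔCT line 1 XEG1 replicate 1). With the estimated correlation between mock and XEG1 libraries it was 3, against 19 of all tested genes (0.0517%). With median-ratio scaling it was 25, of which 9 were higher and 16 lower, and the calls over all tested genes were 765 higher and 475 lower.

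The median of ΔCT line 1 minus rxeg1 was -0.31 over the wild-type-high genes and 0.38 over the wild-type-low genes, with 0.08 over all tested genes. The limma test called 168 of the 466 genes (36.1%), of which 15 wild-type-high genes were lower, 1 wild-type-high gene was higher and 152 wild-type-low genes were higher. Of all tested genes 3071 were called (8.35%), 3.9% higher and 4.45% lower.

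Of the genes named for ΔCT line 1, the wild-type-low Niben101Scf00317g06030 had 11.7 and 11.1 TPM after XEG1 and 12.6 and 14.7 TPM after mock there, against 3.65 and 4.85 TPM and 3.28 and 7.77 TPM in the rxeg1 knockout. It was higher without overlap, by 1.25 (adjusted p = 0.0241 by limma). Niben101Scf24421g00002 was higher by 1.15 (adjusted p = 0.0242). The wild-type-high Niben101Scf02636g05003 had 60.0 and 93.5 TPM after XEG1 and 63.8 and 21.6 TPM after mock in ΔCT line 1, against 166 and 92.2 TPM and 161 and 102 TPM in the rxeg1 knockout, a difference of -1.24 (adjusted p = 0.0244) between lines that overlapped in 1 library. Niben101Scf18896g00010, also wild-type-high, was lower, with a difference of -1.41 (adjusted p = 0.00812). The 1 wild-type-high gene that was higher was Niben101Scf03804g03007 (adjusted p = 0.0035 by limma), pointed out after its values had been seen.

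These 4 genes named for ΔCT line 1 were called in 8 to 12 of 17 alternative settings, with the highest adjusted p between 0.287 and 0.54. All 4 calls were lost with the estimated correlation (adjusted p = 0.0667 to 0.149 by limma). The count of 168 was 23 without ΔCT line 1 mock replicate 2, 38 and 101 without ΔCT line 1 XEG1 replicate 1 and replicate 2, and 63 and 67 without rxeg1 mock and XEG1 replicate 1. It was 10 with the estimated correlation, 102 with median-ratio scaling (82 higher and 20 lower) and 0 in a fit of these 2 lines alone. Over all tested genes these last settings gave 239 (0.65%), 3629 and 20 calls. Calls over all tested genes also fell in each setting above that left out 1 library.

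ΔCT line 2, with the same construct as ΔCT line 1, had medians of -0.20 and 0.29 against the rxeg1 knockout, with 0.09 over all tested genes, and 1 of the 466 genes was called by limma, against 20 of all tested genes (0.0544%), 0.0326% higher and 0.0218% lower. At an unadjusted p under 0.05 it had 235 of the 466 (50.4%), against 16.0% of all tested genes. The called gene was Niben101Scf05414g02025, with 5.49 and 5.59 TPM after XEG1 and 6.23 and 5.38 TPM after mock, against 2.08 and 2.31 TPM and 2.24 and 1.97 TPM in the rxeg1 knockout. It was higher by 1.08 without overlap (adjusted p = 0.0151 by limma, called in 7 of 17 settings, range 0.00581 to 0.484), and the call was lost with the estimated correlation (adjusted p = 0.12 by limma). No gene was called without ΔCT line 2 mock replicate 1 or 2, ΔCT line 2 XEG1 replicate 2, or rxeg1 mock or XEG1 replicate 2, and 44 were called with the replicate number as a block (9.44%), against 621 of all tested genes (1.69%). The difference between the ΔCT lines was not tested.

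The Δ90-95/Q786AK791A line had medians of -0.34 and 0.24 against the rxeg1 knockout, with -0.03 over all tested genes. The limma test called 111 of the 466 genes (23.8%), 24 wild-type-high genes as lower and 87 wild-type-low genes as higher, against 3438 of all tested genes (9.35%), 3.34% higher and 6.01% lower. The wild-type-low genes Niben101Scf05957g00001 and Niben101Scf03765g00002 were higher by 1.21 and 1.18 (adjusted p = 0.00275 and 0.0022 by limma, each called in 15 of 17 settings).

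Niben101Scf05957g00001 had 12.7 and 4.83 TPM after XEG1 and 5.54 and 4.37 TPM after mock in the Δ90-95/Q786AK791A line, against 1.76 and 1.88 TPM and 2.65 and 2.34 TPM in the rxeg1 knockout. XEG1 replicate 1 stood above the other libraries of the line. The TPM of Niben101Scf05957g00001 was 1.02 to 1.27 times that of Niben101Scf03765g00002 in all 28 libraries. The 2 genes may share reads, since this allotetraploid species holds many near-identical gene copies and the sources used here do not say how shared reads were assigned. They are therefore counted as uncertain and not as 2 independent calls.

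Of the wild-type-high genes, Niben101Scf05341g03002 had 29.5 and 21.7 TPM after XEG1 and 37.4 and 7.21 TPM after mock in the Δ90-95/Q786AK791A line, against 97.4 and 97.2 TPM and 111 and 67.5 TPM in the rxeg1 knockout. The lines did not overlap, and the difference was -2.10 (adjusted p = 0.0094 by limma, called in 12 of 17), a call lost with the estimated correlation (adjusted p = 0.10 by limma). Niben101Scf18896g00010 was lower, with a difference of -1.84 (adjusted p = 0.00141 by limma, called in 16 of 17 settings with a range of 0.000572 to 0.0679). It had 3.30 and 1.51 TPM after XEG1 and 2.31 and 1.53 TPM after mock, against 9.41 and 11.8 TPM and 10.2 and 9.09 TPM in the rxeg1 knockout, so each library of the line was below 0.5 times the lowest library of the knockout. The count of 111 was 35 without Δ90-95/Q786AK791A mock replicate 2, 58 without its XEG1 replicate 1, 51 and 65 without rxeg1 mock and XEG1 replicate 1 and 72 without rxeg1 XEG1 replicate 2. With median-ratio scaling the calls over all tested genes were 1643 higher and 1822 lower, and 86 of the 466 were called. The count was 17 with the estimated correlation and 4 in a fit of these 2 lines alone. Of all tested genes 755 (2.05%) and 294 were called in these last settings. Calls over all tested genes also fell in each setting above that left out 1 library.

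The Δ90-95/Δ786-792 line differs from the Δ90-95/Q786AK791A line by a deletion, given in its name, in place of the substitutions Q786A and K791A. Against the rxeg1 knockout its medians were -0.05 and 0.01 (-0.07 and -0.0027 with median-ratio scaling), with 0.02 over all tested genes, and 1 of the 466 genes was called by limma, against 2 of all tested genes (0.00544%), 0.00272% each way. At an unadjusted p under 0.05 it had 5 of the 466 (1.07%), against 2.81% of all tested genes, and no gene was called without Δ90-95/Δ786-792 XEG1 replicate 2 or rxeg1 mock replicate 2. The called gene was again Niben101Scf05414g02025, with 6.05 and 8.26 TPM after XEG1 and 5.15 and 5.81 TPM after mock, against 2.08 and 2.31 TPM and 2.24 and 1.97 TPM in the rxeg1 knockout. It was higher without overlap, by 1.20 (adjusted p = 0.00813 by limma, called in 10 of 17 settings), and the call was lost with the estimated correlation (adjusted p = 0.13 by limma). The difference between these 2 construct lines was not tested.

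The same rule was also applied to each line in turn, with that line in the place of wild type, as a description of how often 4 libraries of 1 line lie beyond the other 24. It found 15 genes for the sobir1/sobir1-like knockout, 92 genes for ΔCT line 1 and 19 genes for ΔCT line 2, 108 for the Δ90-95/Q786AK791A line, 4 for the Δ90-95/Δ786-792 line, 8 for the rxeg1 knockout and 466 for wild type. In the direction of higher levels, ΔCT line 1 had as many genes as wild type, 78 each, and the Δ90-95/Q786AK791A line had 55. In the direction of lower levels, wild type had 388 and the next line, the Δ90-95/Q786AK791A line, had 53. Without the limit on the change with XEG1, wild type had 137 genes of higher and 467 of lower level, and the numbers of the other lines were the same as with it. With median-ratio scaling the wild-type numbers were 130 and 219. The wild-type XEG1 libraries stood apart over all genes, and the part of that shift in these numbers was not tested.

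**Figure D5:**
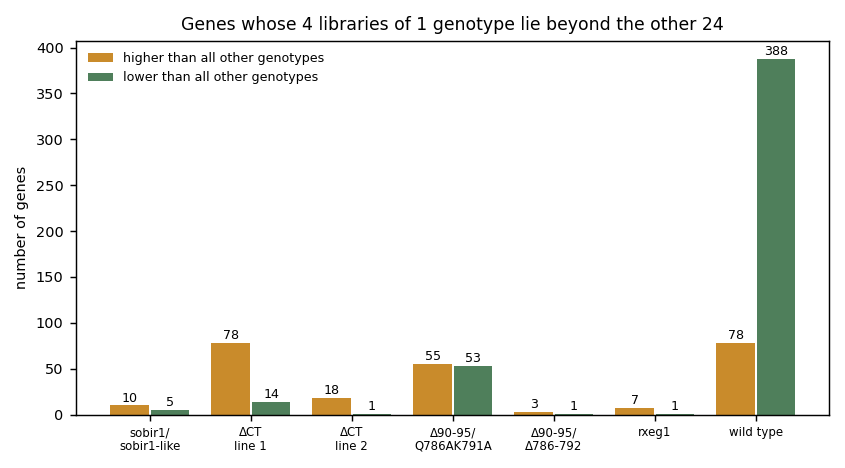
Number of genes (vertical axis) whose 4 libraries of 1 genotype all lie above, or all below, the other 24 libraries and whose XEG1 mean lies within 1 of the mock mean on the log2(TPM + 1) scale, for each genotype with wild type at the right. ΔCT line 1 and wild type both have 78 genes of higher level under this limit (78 and 137 without it), and wild type has 388 genes of lower level against at most 53 elsewhere.

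The 466 genes lay on 437 scaffolds of the assembly named in the identifiers, read from the identifier alone. Of these scaffolds 29 held 2 of the genes and none held more. On 21 of the 29 both genes had the same direction, 1 scaffold with wild-type-high and 20 with wild-type-low genes, and on 8 the directions differed. The genes of either direction were thus spread over many scaffolds.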

How the data were processed

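RNA was sequenced from 28 libraries of 12-day-old seedlings, 2 in each of 14 groups of genotype and treatment. The labels number the replicates without saying that they came from separate plants, and p-values therefore speak only of the spread among the libraries at hand. Per the labels' protocols, libraries were made from total RNA with an MGIEasy kit. Reads were aligned with HISAT2 2.0.4, per the submitters' processing notes. How alignments became TPM, and on which build and annotation, is not stated in those notes or the labels. For each library the authors deposited TPM for 59814 genes, and 9517 of these have a 0 throughout. A combined table was not used here, and 0 columns of other samples were found. TPM keeps no read numbers, so depth is unknown and no interval from counting can be given.

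Values were taken to log2(TPM + 1), which understates changes of genes of low level, and genes averaging 1 TPM or more were tested. A single robust limma fit of 14 group means, with a trend of variance on level, gave all contrasts: XEG1 minus mock averaged over the 6 mutant and construct lines, and differences between lines averaged over treatments. P-values were adjusted by the Benjamini-Hochberg method over all 36777 genes per contrast, and 0.05 was the threshold. The fit takes mock and XEG1 libraries of a line as independent. The procedure was tested on simulated data with independent noise in each library. That test cannot speak on libraries that are correlated within a line and replicate. Genes named are, per direction, the 2 with the widest gap from wild type, and per contrast the called genes of the set with the largest change, at most 2 in each direction, since the identifiers carry no names. Lists of genes by function could not be applied for that reason. The genes and lists were chosen with earlier results of these data known.

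Alternatives were a pseudocount of 0.1, dropping the filter, a minimum mean of 5 TPM, a limit of 0.5 on the wild-type change, median-ratio scaling, the replicate number as a block, only the compared groups, and leaving out each library in turn. In a group left with 1 library, the lone library was taken to vary as other groups do. An estimated correlation within line and replicate, a fit without wild type, and fits of mock or XEG1 libraries alone were added after the data were seen. Over 91 pairs of groups, deviations of same-numbered libraries correlated at -0.17 to 0.73. The correlation was above 0.1 in 50 pairs, 5 of them mock and XEG1 groups of the same line, and below minus 0.1 in 2. Libraries of the same number thus shared part of their deviations in many groups. The main fit did not take the libraries as paired by number, so its p-values leave this out. Computations used R 4.3.3 with limma 3.58.1 and statmod 1.5.0, and Python 3.11.15 with pandas 2.3.3, numpy 2.4.6 and matplotlib 3.10.9.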

Additional observations from a re-analysis of the deposited data

Results flagged for a closer look

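In 4 of the named genes the XEG1 minus mock change had opposite signs in a pair of lines, with both XEG1 libraries of a line above, or both below, both of its mock libraries. The differences below are on the log2(TPM + 1) scale and none was tested.

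The wild-type-high Niben101Scf05341g03002 changed by 1.18 in ΔCT line 1 and by 0.96 in ΔCT line 2, against -0.64 in wild type, differences of 1.82 and 1.60. Its XEG1 libraries had 41.2 and 94.6 TPM and its mock libraries 39.7 and 18.4 TPM in ΔCT line 1, so that difference rests largely on replicate 2.

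The wild-type-low Niben101Scf05957g00001 changed by 0.81 in ΔCT line 2, against -0.31 in the rxeg1 knockout, a difference of 1.12. Its change was -0.31 in the rxeg1 knockout, against 0.19 in wild type, and wild type minus rxeg1 was 0.49. Niben101Scf03765g00002, whose level follows that of Niben101Scf05957g00001 in all 28 libraries, changed by 0.72 in ΔCT line 2 and by 0.24 in the sobir1/sobir1-like knockout, against -0.33 in the rxeg1 knockout, differences of 1.06 and 0.57. Wild type minus rxeg1 was 0.52 for it.

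The wild-type-low Niben101Scf05414g02025 changed by 0.29 in the sobir1/sobir1-like knockout and by 0.32 in the Δ90-95/Δ786-792 line, against -0.48 in the Δ90-95/Q786AK791A line, differences of 0.77 and 0.80.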

How the results depend on the processing

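The number of wild-type-high genes was 78 and moved to 130 with median-ratio scaling and 46 with a limit of 0.5 on the wild-type change, and that of wild-type-low genes was 388 and moved to 219 and 247. With 1 library left out in turn these numbers ran from 78 to 297 and from 380 to 2899. Leaving out wild-type mock replicate 1 gave 269 and 1003, and wild-type mock replicate 2 gave 297 and 2899, against at most 106 and 535 without any other library. Of the 78 and 388 genes, 69 and 349 met the rule whichever single library was left out. Leaving out a library cannot undo the separation of a gene from the other lines. The remaining genes failed only the limit on the wild-type change, so these numbers do not test the separation.

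The number of genes called by limma was 1 for XEG1 minus mock over the 6 lines. It was 0 with no filter, with scaling, in a fit of only the compared groups and without the wild-type libraries, 20 with the estimated correlation, and 0 to 9 with 1 library left out. For sobir1/sobir1-like minus rxeg1 it was 1, and 0 with only the compared groups, the estimated correlation, the mock libraries only or the XEG1 libraries only. For sobir1/sobir1-like minus the mean of 5 lines it was 56. It was 35 with no filter, 25 with scaling, 29 with only the compared groups or without wild type, 3 with the estimated correlation, 2 in mock and 1 in XEG1 libraries alone, and 2 to 116 with 1 library left out. For ΔCT line 1 it was 168, and 102 with scaling, 10 with the estimated correlation, 0 with only the compared groups or with either treatment alone, and 23 to 227 with 1 library left out. For ΔCT line 2 it was 1, and 0 with a pseudocount of 0.1, only the compared groups, the estimated correlation or either treatment alone, and 0 to 1 with 1 library left out. For the Δ90-95/Q786AK791A line it was 111, and 4 with only the compared groups, 17 with the estimated correlation, 14 in mock and 2 in XEG1 libraries alone, and 35 to 99 with 1 library left out. For the Δ90-95/Δ786-792 line it was 1, and 0 with a pseudocount of 0.1, only the compared groups, the estimated correlation or either treatment alone, and 0 to 1 with 1 library left out. Calls over all tested genes moved in these settings too. With the estimated correlation they went from 894 to 19 for sobir1/sobir1-like minus the mean of 5 lines. For ΔCT line 1 they went from 3071 to 239, for the Δ90-95/Q786AK791A line from 3438 to 755, and for XEG1 minus mock from 531 to 1579. The cause of these moves was not tested, except that a fit of fewer libraries has fewer residual degrees of freedom.

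With the replicate number as a block, the counts were 139 for sobir1/sobir1-like minus the mean of 5 lines and 44 for ΔCT line 2, 220 for ΔCT line 1, 133 for the Δ90-95/Q786AK791A line and 1 for each of the others. Over all tested genes the block gave 3399, 621, 5579 and 4636 calls in the same order, and 8 to 705 in the others. The block lost none of the 16 named calls, and the estimated correlation lost 9 of them. Mock and XEG1 libraries of a line correlated by number at 0.73 in the rxeg1 knockout, 0.54 in the Δ90-95/Δ786-792 line and -0.016 in ΔCT line 1. No named gene turned its direction under any alternative. Of 470 values for named genes under alternatives, 372 kept their call or were gaps that moved by less than a fixed limit. A further 95 were no longer called, and 3 were gaps that moved by more. Depth limits cannot be given for TPM.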
